A study of Mus musculus with 24 samples.

Results

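Matrix proteases and their TIMP inhibitors were followed in mouse tibialis anterior, a fast muscle of the lower leg, after loss of the histone chaperone HIRA. The members are all array rows whose annotated symbol is a Timp, Mmp, Adam, Adamts or Adamtsl gene. There were 89 such rows of 26423, and they stood for 76 genes of the 17742 tested: 4 Timp, 21 Mmp, 27 Adam, 19 Adamts and 5 Adamtsl genes. The 4 control animals were Myf6 cre/+; Hira flox/+ and the 4 knockout animals Myf6 cre/+; Hira flox/-. All 8 were 6 months old, carried the strain label C57BL6/J;129S1/SvImJ and had the Cre recombinase at 1 copy of the Myf6 locus, which is active in muscle fibres. Control fibres thus kept 1 intact Hira copy by genotype, and the null copy of a knockout animal lay in all of its cells. RNA of the whole muscle of each animal was hybridised 3 times, giving 24 arrays. The animals are numbered 1 to 4 within a group in deposit order, and a number pairs nothing across groups.

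Matrix metalloproteases (MMPs) and the ADAM and ADAMTS enzymes are zinc proteases made as inactive precursors. MMPs cut collagens, laminin and other matrix proteins, membrane-anchored ADAMs release the outer parts of cell surface proteins, and secreted ADAMTS enzymes cut proteoglycans, procollagens and fibrillin-associated proteins. The ADAMTS-like proteins share the ancillary domains of ADAMTS enzymes but lack the protease. TIMPs bind the active site of these enzymes and block it. In muscle the balance of proteases and inhibitors takes part in matrix turnover around fibres, in satellite cell movement and in the scarring that follows damage.

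The deposited intensities are linear, and every array had the same median, 626.429. Arrays differed at the low end, with a 5th percentile between -2.35 and 125, and 125 was taken as the level at or below which a gene is called dim. The number of arrays and animals limits the precision. On the Hira probe, control animals read log2 8.85 to 9.11 and knockout animals 8.52 to 9.30, so the groups overlapped, and knockout less control was -0.15 ± 0.17 (SE; limma, adjusted p = 0.623). Where this probe lies relative to the deleted segment is unknown here, so it does not check the genotypes. The 11 measured fibre markers had a mean log2 intensity of 17.34 to 17.76 in every animal, so the labelled tissue's defining transcripts were present. Of these markers Tnnt1 rose by 1.27, or 2.42-fold (limma, adjusted p = 0.00806), and no other passed. In whole muscle, fewer cells of a type and less RNA per cell cannot be told apart.

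Timp1, Mmp3 and Adam8 were the members with the largest rises in knockout muscle, and Timp4 and Adamtsl4 those with the largest falls. Of the 76 members 9 changed at an adjusted p under 0.05 (limma, Benjamini-Hochberg over all 17742 genes), which is 11.8% against 9.28% of all genes. The 5 that rose, Timp1, Mmp3, Mmp27, Adam8 and Adam21, are 6.58% of the members, against 4.28% of all genes. The 4 that fell, Timp4, Adamts10, Adamtsl4 and Adamtsl1, are 5.26%, against 5.01%. The shares of members called thus lay close to those of all genes, and the median difference was -0.08 on the log2 scale for the members and -0.07 for all genes. In 17 members (22.4%) the 4 knockout animals did not overlap the 4 control animals, against 17.5% of all genes. The difference was within 0.5 on the log2 scale in 63 of 76 members, and in 15801 of 17742 genes. By family, the median was -0.41 for Timp, 0.04 for Mmp, -0.03 for Adam, -0.17 for Adamts and -0.18 for Adamtsl genes. Of the members, 65 were above the dim level in at least 1 group, and the other 11 were dim in both, where no fold is given.

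**Figure D1:**
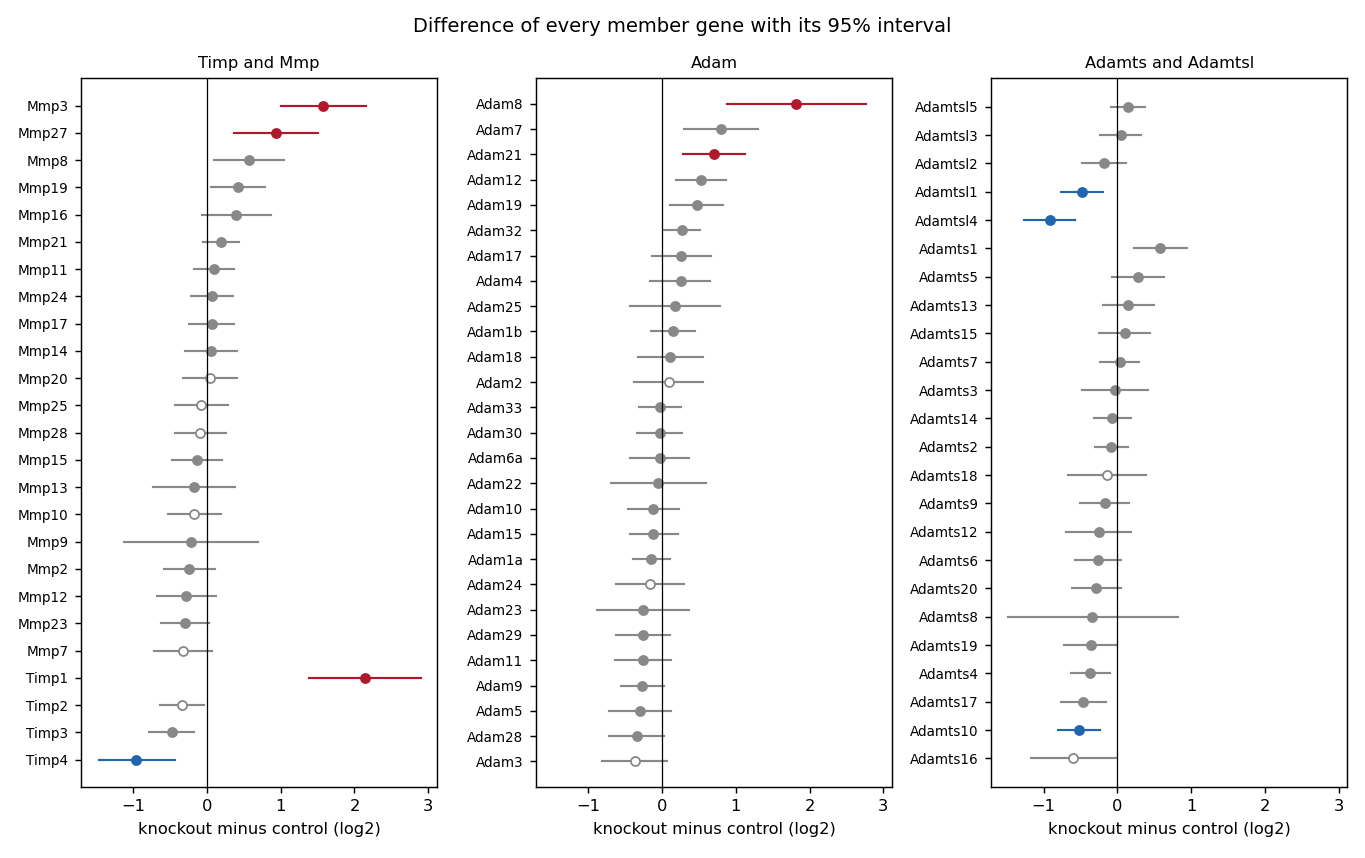
Difference between knockout and control muscle for all 76 member genes, on the log2 scale, with the 95% interval of the limma fit as a line. Red points rose and blue points fell at an adjusted p under 0.05, grey points did not pass, and open points were dim in both groups. Timp1 (2.14), Adam8 (1.82) and Mmp3 (1.58) stand to the right of the other genes of their families, and the 3 other Timps lie left of 0.

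The stretch before the annotated start site is shown for the 3 members of largest rise and for Timp4, the inhibitor that fell, since AP-1 and SP1 sites before the starts of Timp and Mmp genes are much studied. Each is the 250 bases upstream of an annotated start in RefSeq on GRCm38.p6, read 5′ to 3′ on the strand of the gene: chrX:20869916-20870165 (plus) for Timp1, chr9:7445572-7445821 (plus) for Mmp3, chr7:139992563-139992812 (minus) for Adam8 and chr6:115252206-115252455 (minus) for Timp4. Capitals mark matches, on either strand, to the AP-1 motif TGANTCA, the GC box GGGCGG bound by SP1, or the TATA box TATAAA. These 3 motifs share no letters in the matches shown.
Timp1: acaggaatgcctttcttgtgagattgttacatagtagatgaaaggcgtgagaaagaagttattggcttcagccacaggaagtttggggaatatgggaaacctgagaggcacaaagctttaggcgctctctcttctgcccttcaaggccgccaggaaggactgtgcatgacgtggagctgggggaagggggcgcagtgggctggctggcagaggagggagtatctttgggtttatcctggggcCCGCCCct
Mmp3: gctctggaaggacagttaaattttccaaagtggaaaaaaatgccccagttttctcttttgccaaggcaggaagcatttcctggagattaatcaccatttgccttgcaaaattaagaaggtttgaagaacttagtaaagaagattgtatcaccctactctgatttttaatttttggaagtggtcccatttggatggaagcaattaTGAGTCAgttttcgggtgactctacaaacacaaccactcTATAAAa
Adam8: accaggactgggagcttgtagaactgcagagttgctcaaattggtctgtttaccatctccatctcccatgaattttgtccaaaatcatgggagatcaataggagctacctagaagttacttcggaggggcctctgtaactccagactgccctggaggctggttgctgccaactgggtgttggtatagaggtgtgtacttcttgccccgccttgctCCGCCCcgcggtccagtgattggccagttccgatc
Timp4: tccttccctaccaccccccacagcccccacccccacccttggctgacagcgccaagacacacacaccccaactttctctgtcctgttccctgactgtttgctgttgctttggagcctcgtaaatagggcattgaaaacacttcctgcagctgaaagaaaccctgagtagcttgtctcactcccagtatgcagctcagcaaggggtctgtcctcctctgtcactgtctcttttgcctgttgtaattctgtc

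With positions given as the first base of the match relative to the start, Timp1 had a GC box at -8, Mmp3 an AP-1 match at -46 and a TATA box at -7, Adam8 a GC box at -35, and Timp4 no match to these letters in this window. Among all 32851 RefSeq windows of this length, 6.75% held the AP-1 motif, 32.7% the GC box and 12.4% the TATA box. Windows were given for 47 of the 76 member genes, 52 in all, and of these 9 (17.3%) held the AP-1 motif, 24 (46.2%) the GC box and 10 (19.2%) the TATA box. Of the 9 genes with an AP-1 match, Mmp3 was the only 1 that rose at the threshold, against 4.28% of all genes. The other 8 were Mmp7, Mmp10, Mmp12, Mmp13, Mmp20, Adam19, Adam25 and Adam29, and none of these passed the test in either direction. Mmp7, Mmp10 and Mmp20 were dim in both groups, and a count from 9 genes says little of the motif. A match is a description of letters and not of a bound site.

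Timp1 was the inhibitor that rose, while the other 3 TIMPs lay lower in every knockout animal than in any control animal. Timp2 was dim in both groups, and 1811 of all 17742 genes also lay lower without overlap. Timp1 encodes a secreted glycoprotein that inhibits most secreted MMPs and ADAM10, and is induced by cytokines and injury in many tissues. Its intensity was 664, 424, 405 and 376 in control animals 1 to 4 and 937, 2022, 2301 and 3710 in knockout animals 1 to 4. The groups did not overlap: the lowest knockout animal, animal 1, lay above the highest control animal, which was also numbered 1. The log2 mean went from 8.83 ± 0.37 (SD, n = 4) to 10.97 ± 0.82, a rise of 2.14 ± 0.35 (SE; 95% interval 1.38 to 2.90), or 4.40-fold (limma, adjusted p = 0.00343). The lack of overlap fixed the p of an exact two-sided permutation of the 8 animals at 0.0286, the smallest that 4 against 4 allows. The rise ranged from 1.84 to 2.50 as each animal was left out, and stayed past the threshold each time. The labels' animal numbers fall in 2 runs, series A (animals 1 and 2 of each group) and series B (animals 3 and 4). The rise was 1.37 within series A (limma, adjusted p = 0.191) and 2.90 within series B (adjusted p = 0.0239), with 2 animals per group in each.

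Timp4 is the TIMP whose transcript is best known from heart, muscle and brain. Its intensity was 1287, 2268, 1747 and 1805 in control animals 1 to 4 and 1044, 597, 820 and 1269 in knockout animals 1 to 4. The groups did not overlap, but control animal 1 and knockout animal 4 lay close together. Timp4 fell by 0.96 ± 0.23 on the log2 scale, or 1.94-fold (limma, adjusted p = 0.0275). The call was lost, at adjusted p-values of 0.0523 to 0.071, without control animal 2 (-0.83), 3 (-0.96) or 4 (-0.94) or knockout animal 2 (-0.76) or 3 (-0.91), and also without hybridisation 2 (-0.88; adjusted p = 0.062) and with the floor of the intensities raised to the dim level (adjusted p = 0.0729), a setting chosen after the data were seen.

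Timp3, the inhibitor that stays bound to the matrix and also blocks ADAM17 and several ADAMTS enzymes, had an intensity of 21094, 29671, 30027 and 21860 in control animals 1 to 4 and 18838, 17792, 17207 and 18856 in knockout animals 1 to 4. All 4 knockout animals lay below all controls and close together, while the controls split into 2 higher and 2 lower animals. The lack of overlap again fixed the exact permutation p at 0.0286. The difference of -0.48 ± 0.14 did not pass over all genes (limma, adjusted p = 0.0598). It passed under 8 of 26 alternative settings, at adjusted p-values of 0.00154 to 0.0491. Among these were both fits of single arrays that took the animal as a random block (-0.48; adjusted p = 0.00154, and 0.00195 with a replicate block), and the fit without control animal 1 (-0.57; adjusted p = 0.0491). The single-array fits set the same within-animal correlation for all genes (0.378, and 0.393 with the replicate block). For Timp3 the SD between animals (0.2) was above that between hybridisations (0.114), so the p-values of those fits are likely too small. Timp2, a secreted inhibitor that also takes part in the activation of MMP2 by MMP14, had an intensity of 113, 103, 149 and 120 in control animals and 98.9, 83.5, 97.6 and 102 in knockout animals. Both group means lay at or below the dim level, so the difference of -0.34 ± 0.14 (limma, adjusted p = 0.157) stands without a fold. It was the 1 row annotated to Timp2.

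The size of the gap between Timp1 and the other inhibitors can be given as a ratio within each animal. The log2 value of Timp1 less that of Timp4 was -0.95, -2.42, -2.11 and -2.26 in control animals 1 to 4 and -0.16, 1.76, 1.49 and 1.55 in knockout animals 1 to 4. The group means of this quantity differed by 3.10, those against Timp3 by 2.62 and those against Timp2 by 2.47. Timp2 was dim in both groups, and with the floor at the dim level its value was 2.26. Since Timp1 lay higher and each of the others lower without overlap, these ratios had to separate the groups, and they are given as sizes with no test. Such a ratio shows unequal change of the 2 genes, not that either was constant.

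**Figure D2:**
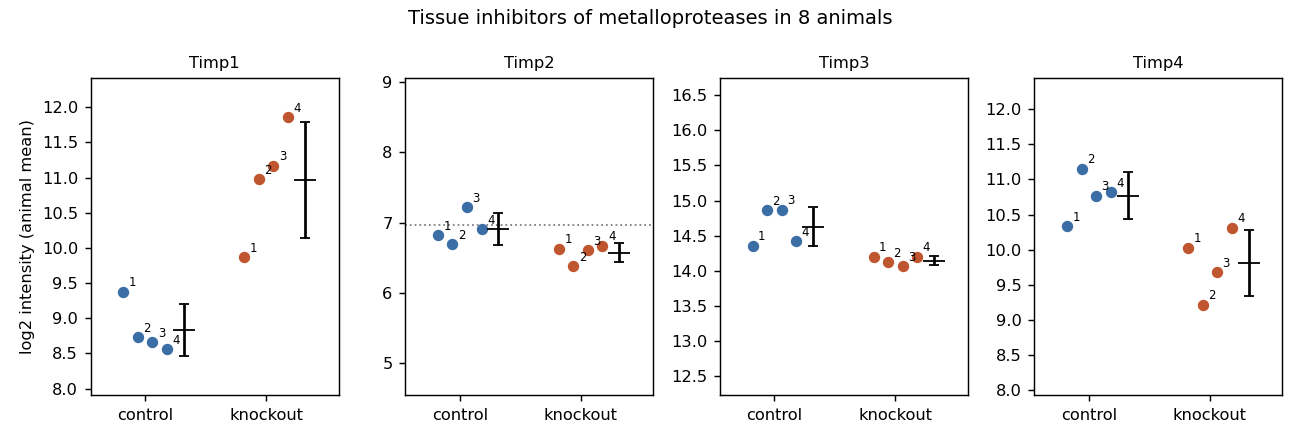
The 4 TIMP inhibitors in each animal, as log2 intensity averaged over the 3 hybridisations, with the animal's number beside its point and the group mean with its SD (n = 4) as a bar at the side. The dotted line is the dim level (125). Timp1 is higher in all 4 knockout animals, and Timp2, Timp3 and Timp4 are lower in all 4, with the group means of Timp2 dim. The panels have their own y axes, each of equal span.

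Among the MMPs 2 of 21 rose and 0 fell, against 4.28% and 5.01% of all genes, and the other 19 lay between -0.33 and 0.57. Mmp3 (stromelysin 1) cuts proteoglycans, laminin and fibronectin and can activate other proMMPs. Its intensity was 171, 124, 159 and 261 in control animals 1 to 4 and 321, 664, 513 and 632 in knockout animals 1 to 4. The knockout animals all lay above the controls, knockout animal 1 the least so, as for Timp1. Mmp3 rose by 1.58 ± 0.26, or 2.98-fold (limma, adjusted p = 0.00377), and by 1.42 to 1.80 with each animal left out, with the call kept each time. It was 1.67 in series A (adjusted p = 0.135) and 1.48 in series B (adjusted p = 0.0615).

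Mmp27, a little-studied relative of the stromelysins, had an intensity of 107, 78.9, 129 and 128 in control animals 1 to 4 and 248, 328, 145 and 158 in knockout animals 1 to 4. The control mean was dim, and knockout animals 3 and 4 lay only just above the highest control. Mmp27 rose by 0.94 ± 0.26, at least 1.67-fold against the dim level (limma, adjusted p = 0.0441). The rise was 1.64 in series A and 0.24 in series B, neither past the threshold (limma, adjusted p = 0.0716 and 0.24). The call was also lost, at adjusted p-values of 0.0544 to 0.107, without control animal 1 (0.93), 2 (0.78), 3 (1.02) or 4 (1.02) or knockout animal 1 (0.85) or 2 (0.72). It was lost as well without hybridisation 1 or 2 (adjusted p = 0.0693 and 0.0939) and with the floor at the dim level (0.65; adjusted p = 0.176).

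No other functional class of MMP held a gene that passed. The gelatinases Mmp2 and Mmp9, which cut denatured and basement membrane collagen, differed by -0.24 and -0.22. The collagenases Mmp8 and Mmp13 gave 0.57 ± 0.22 (limma, adjusted p = 0.135) and -0.17. Mmp8 was dim in control muscle, so that its fold is only at least 1.15. All 6 membrane-type MMPs lay between -0.13 and 0.40, among them Mmp14, the main activator of proMMP2, at 0.06. Mmp12, the macrophage elastase, was at -0.28 (limma, adjusted p = 0.373). Mmp19 and Mmp23 gave 0.42 ± 0.17 (adjusted p = 0.151) and -0.30 (adjusted p = 0.247).

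Mmp3, Mmp8 and Mmp27 lie in a row of 10 Mmp genes on chromosome 9, in the RefSeq order Mmp13, Mmp12, Mmp1b, Mmp3, Mmp1a, Mmp10, Mmp8, Mmp27, Mmp20 and Mmp7. This set was looked at after its values were seen and is described without a test. Of the 10 genes 8 were measured, 2 rose (against 4.28% of all genes), and 3 (Mmp10, Mmp20 and Mmp7) were dim in both groups. Of the genes between the 2 that rose, Mmp8, next to Mmp27, gave 0.57 and did not pass, Mmp10 was dim, and Mmp1a was not measured. Mmp13 and Mmp12 at one end gave -0.17 and -0.28. The 13 measured Mmp genes outside this row lay between -0.30 and 0.42, with 0 called.

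**Figure D3:**
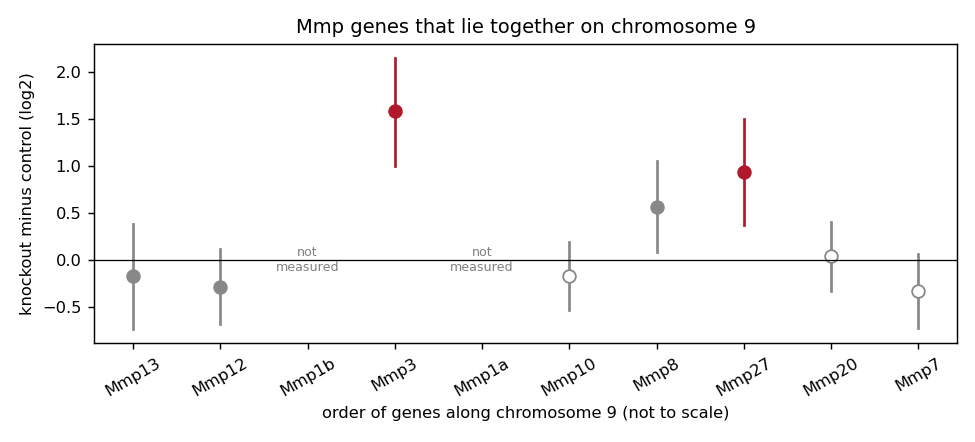
Differences between knockout and control muscle (log2, with 95% intervals) for the Mmp genes in their RefSeq order on chromosome 9. Distance is not to scale, red points rose, grey points did not pass and open points were dim in both groups. Mmp3 (1.58) and Mmp27 (0.94) rose, Mmp8 beside Mmp27 gave 0.57 and did not pass, and the other 5 measured genes lie between -0.33 and 0.04.

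Adam8 rose most among the ADAMs, and it was the member whose knockout animals differed most. ADAM8 is a sheddase best known from myeloid cells, where it cuts adhesion molecules. Its intensity was 359, 421, 478 and 454 in control animals 1 to 4 and 759, 1129, 4579 and 1312 in knockout animals 1 to 4. The groups did not overlap, and knockout animal 3 stood far above the other 3. Adam8 rose by 1.82 ± 0.43, or 3.54-fold (limma, adjusted p = 0.0232). Without knockout animal 3 the rise was smaller, 1.29, and its adjusted p lower, 0.00349. The call was lost without control animal 1 (1.74; adjusted p = 0.074) or 3 (1.88; adjusted p = 0.0512), with an intensity trend and robust variances (adjusted p = 0.0722), and with the floor at the dim level (adjusted p = 0.0794). The rise was 1.25 in series A (adjusted p = 0.108) and 2.40 in series B (adjusted p = 0.0905).

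Adam8 and several macrophage markers were high in the same knockout animal. Over the 16 measured macrophage markers the summed intensity was 24290 to 44231 in the control animals and 27299, 40452, 98358 and 38588 in knockout animals 1 to 4, so that only knockout animal 3 lay above the controls. Cx3cr1 rose (0.89; limma, adjusted p = 0.0184), Cd163 fell by 0.93 (adjusted p = 0.049), the other 14 did not pass, and the median was 0.43. Of 3 markers chosen after their values were seen, Trem2, a lipid receptor of phagocytes, was at log2 8.96, 10.22, 13.24 and 10.54 in knockout animals 1 to 4, against 8.60 to 9.03 in the controls. Ctss, the lysosomal protease cathepsin S, was at 10.02, 11.98, 13.33 and 12.16 against 9.59 to 10.57, and Cd68 at 9.89, 10.74, 13.41 and 10.99 against 9.96 to 10.41. In Adam8, Trem2, Ctss and Cd68 alike the order of the knockout animals was 3, 4, 2 and then 1. Of the 16 markers 7 had this order, and 10 were highest in knockout animal 3. The other 6 went other ways: Csf1r, Mrc1 and Cx3cr1 were highest in knockout animal 2, Cd163 and Ccr2 in animal 1 and Fcgr1 in animal 4. Timp1 had another order, with knockout animal 4 highest, and Mmp3 was highest in knockout animal 2. At the low end, 12 of the 16 markers were lowest in knockout animal 1, as were Timp1 and Mmp3. Another 3 markers were lowest in knockout animal 3 and 1 in knockout animal 4. Without knockout animal 3 Timp1 rose by 2.07 (limma, adjusted p = 0.0111). Trem2, Ctss and Cd68 lay above all controls in knockout animals 2 and 4 as well as in animal 3. The part of macrophage RNA in the Adam8, Timp1 and Mmp3 results was not tested. The 9 measured neutrophil markers summed to 2788 to 3898 in control and 2930 to 3158 in knockout muscle, with 3 of them dim in both groups.

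**Figure D4:**
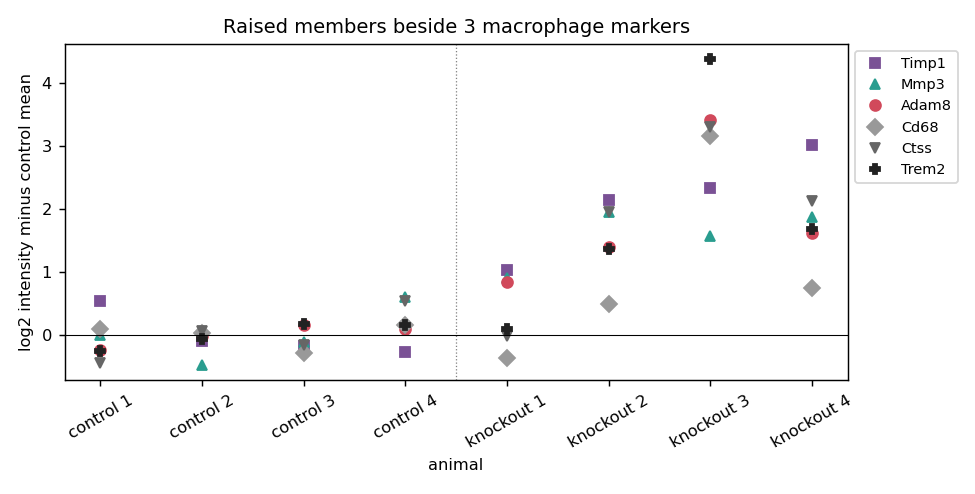
Log2 intensity minus the control mean in each of the 8 animals for Timp1, Mmp3 and Adam8 and for the macrophage markers Cd68, Ctss and Trem2, which were chosen after their values were seen. Adam8 and the 3 markers are highest in knockout animal 3, while Timp1 is highest in knockout animal 4 and Mmp3 in knockout animal 2. Among the knockout animals, all of these genes are lowest in animal 1.

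Adam21, an ADAM known mainly from testis, was the other ADAM that rose. Its intensity was 90.8, 56.6, 108 and 107 in control animals 1 to 4 and 135, 153, 139 and 145 in knockout animals 1 to 4. The control values were all below the dim level and the knockout values just above it. The rise of 0.70 ± 0.19 (limma, adjusted p = 0.0433) is at least 1.15-fold, and was 0.16 (adjusted p = 0.109) with the floor raised to the dim level. It also lost its call without control animal 1 (0.72) or knockout animal 1 (0.73), 2 (0.67), 3 (0.71) or 4 (0.69), at adjusted p-values of 0.0735 to 0.0991, without hybridisation 2 or 3 (adjusted p = 0.147 and 0.0614), and with a constant added in place of the floor (0.36; adjusted p = 0.0639).

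The remaining 25 ADAMs lay between -0.37 and 0.80. Adam12, a sheddase made by regenerating muscle and by activated stromal cells, had log2 means of 7.78 ± 0.31 and 8.32 ± 0.11 with no overlap, and its difference of 0.53 ± 0.15 just missed the threshold (limma, adjusted p = 0.0541). Under 10 of 26 alternative settings it passed. Adam19, a close relative that sheds neuregulins, gave 0.47 ± 0.16 (adjusted p = 0.101), and Adam7, known from the epididymis, 0.80 ± 0.23 (adjusted p = 0.0543). The main sheddases of cell surface ligands, Adam10 and Adam17, and the widely made Adam9 did not pass, and Adam9 gave -0.27 and Adam17 0.26. Of the 15 ADAMs known mainly from testis or epididymis 1 rose, against 4.28% of all genes, with a median of 0.09. The 3 non-catalytic neural ADAMs lay between -0.26 and -0.05.

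Of the 19 ADAMTS enzymes 1 fell, Adamts10, and 0 rose, against 5.01% and 4.28% of all genes. The difference was below 0 in 14 of the 19, and over all genes in 10588 of 17742. ADAMTS10 binds fibrillin and takes part in microfibril assembly. Its intensity was 4700, 4432, 4562 and 3545 in control animals 1 to 4 and 2623, 3128, 3007 and 3200 in knockout animals 1 to 4. The groups did not overlap, with control animal 4 the nearest to the knockout animals. Adamts10 fell by 0.52 ± 0.13, or 1.44-fold (limma, adjusted p = 0.0276). The call was lost, at adjusted p-values of 0.0685 to 0.0772, without control animal 1 (-0.48) or 3 (-0.49) or knockout animal 1 (-0.46) or 3 (-0.53). It was lost too without hybridisation 1 (-0.44; adjusted p = 0.131) or 3 (-0.48; adjusted p = 0.118), and in the fits of single arrays that took the animal as a random block (-0.52; adjusted p = 0.134, and 0.137 with a replicate block). For this gene the SD between hybridisations of an animal (0.402) was above that between animals (0.16).

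The proteoglycan-cutting ADAMTS enzymes were mixed. Adamts1, which cuts versican, had log2 means of 12.51 ± 0.36 and 13.09 ± 0.06, with all knockout animals above the controls, and a difference of 0.58 ± 0.17 (limma, adjusted p = 0.0514). Without control animal 1 the difference was 0.73 and passed (adjusted p = 0.0173). Adamts4, an aggrecanase, lay on the other side with 11.81 ± 0.09 and 11.44 ± 0.18 and no overlap, a difference of -0.37 ± 0.12 (adjusted p = 0.0863). The 3 procollagen N-propeptidases, Adamts2, Adamts3 and Adamts14, lay between -0.08 and -0.03. Adamts17, a relative of Adamts10 that also acts on fibrillin microfibrils, gave -0.46 ± 0.14 (adjusted p = 0.0669) with no overlap. Adamts16 was dim in both groups (-0.60 ± 0.26; adjusted p = 0.192).

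For Adamts20, a versican-cutting enzyme of developing skin, the array rows went against each other. The brightest of its 3 rows gave -0.29 and the others 0.38 and 0.67, so that no direction is given for the gene. The 3 rows of Adam28 also differed in sign (-0.34, 0.25 and -0.36), with none at an unadjusted p under 0.05. For Adamts8 both rows set control animal 4 apart, at 9.25 against 11.24 to 12.05 in the other controls on the first row and at 9.26 against 11.22 to 12.13 on the second. The control SD was thus large, and the difference of -0.34 did not pass (limma, adjusted p = 0.737 among all rows).

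Among the 5 ADAMTS-like genes, which encode no protease, 2 fell and 0 rose, against 5.01% and 4.28% of all genes. A family of 5 is too small to set such a count apart from that share. ADAMTSL4 binds fibrillin in microfibrils, and its loss displaces the lens of the eye. Its intensity was 3294, 4402, 2784 and 2682 in control animals 1 to 4 and 1839, 1676, 1571 and 1756 in knockout animals 1 to 4. The knockout animals lay close together and below all controls. Adamtsl4 fell by 0.92 ± 0.16, or 1.89-fold (limma, adjusted p = 0.005), and by 0.77 to 1.01 with each animal left out, with the call kept each time. Adamtsl1 (punctin 1) had an intensity of 736, 848, 640 and 674 in control animals and 494, 450, 540 and 590 in knockout animals. Again the groups did not overlap, though knockout animal 4 came near control animal 3. Adamtsl1 fell by 0.48 ± 0.13, or 1.40-fold (adjusted p = 0.0446). This call was lost, at adjusted p-values of 0.052 to 0.103, without control animal 1 (-0.47), 2 (-0.40), 3 (-0.54) or 4 (-0.51) or knockout animal 1 (-0.46), 2 (-0.42) or 3 (-0.50), and without hybridisation 1 or 3 (adjusted p = 0.0761 and 0.0631). Adamtsl2, Adamtsl3 and Adamtsl5 gave -0.18, 0.05 and 0.15, and a second row of Adamtsl5 gave 0.54 (adjusted p = 0.053 among all rows).

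In each of the 9 called members the groups did not overlap, so both series of animal numbers had to give the same direction. The values by series are given as sizes. In series A and B in turn, Timp4 gave -1.11 and -0.80, Adam21 1.0 and 0.40, Adamts10 -0.67 and -0.37, Adamtsl4 -1.12 and -0.72, and Adamtsl1 -0.74 and -0.22. With 2 animals per group in a series, Timp1 in series B was the only 1 of these values and those given above that passed. With the series as a block, 8 of the 9 kept their call and Mmp27 did not (0.94; limma, adjusted p = 0.0515).

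**Figure D5:**
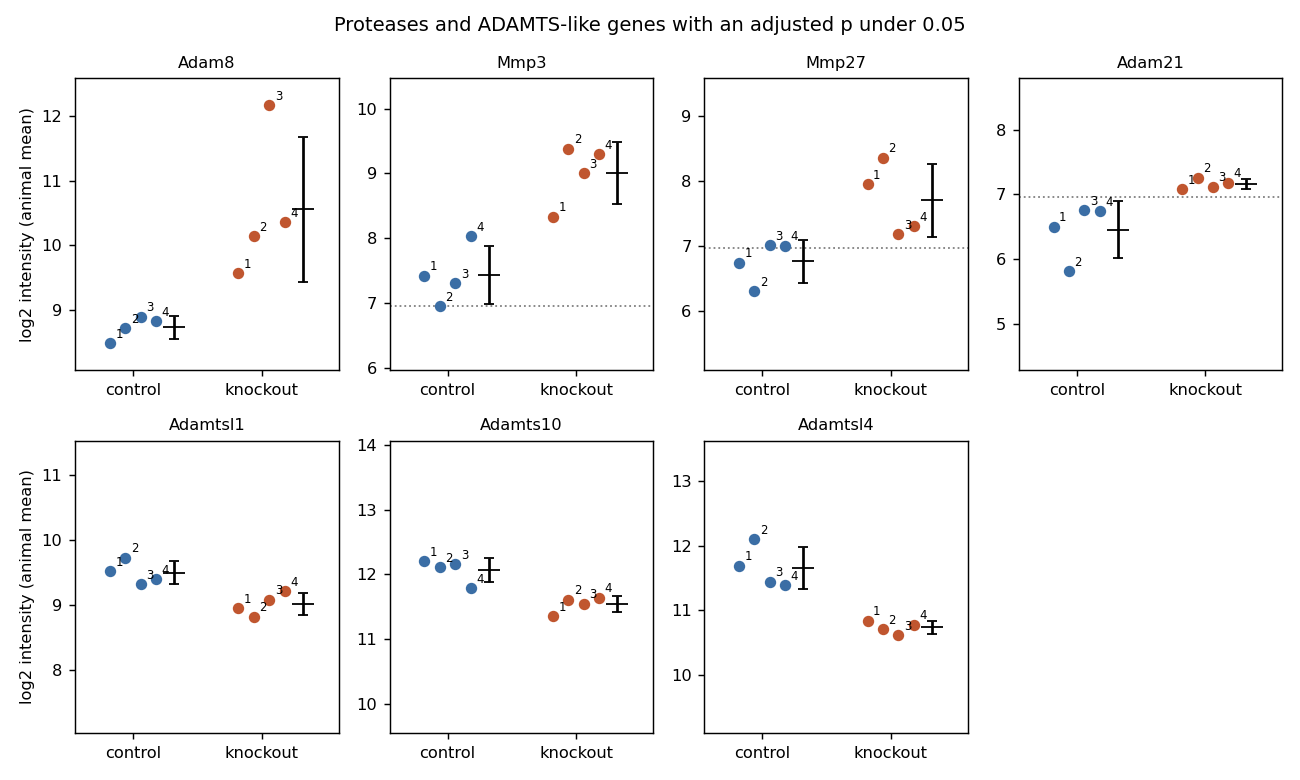
The 7 proteases and ADAMTS-like genes that passed, in each animal, as log2 intensity averaged over 3 hybridisations, with the animal's number beside its point and the group mean with its SD (n = 4) at the side. The dotted line is the dim level (125), and the panels have their own y axes of equal span. Adam8 in knockout animal 3 (4579 as an intensity) stands above the rest, and the control points of Adam21 lie below the dim level.

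In the lists of genes that act with these proteases, 1 gene rose and 1 fell in some and 0 in others. Over all genes 4.28% rose and 5.01% fell, so counts this small say little of a list. Of 16 measured activators and sheddase partners, Tspan5, a tetraspanin that carries ADAM10 to the cell surface, rose by 1.34 ± 0.17, or 2.52-fold (limma, adjusted p = 0.000836). It was at log2 8.74, 8.56, 8.79 and 8.77 in control animals and 9.52, 10.12, 10.15 and 10.40 in knockout animals, with the lowest value again in knockout animal 1. Psenen, a subunit of the γ-secretase that cuts the stubs ADAMs leave, fell by 0.46 (adjusted p = 0.04). Of 18 measured surface proteins cut by ADAMs, Il6ra, the interleukin 6 receptor, rose by 1.38 ± 0.17, or 2.61-fold (adjusted p = 0.000612). Unlike Tspan5, Il6ra was lowest in knockout animal 4, at log2 11.43, 11.56, 11.07 and 11.00 in knockout animals 1 to 4. Btc, the growth factor betacellulin, fell by 0.56 (adjusted p = 0.0242).

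Of 24 measured genes of pathways known to induce Timp1, the transcription factor Runx1 rose by 0.99 ± 0.18 (limma, adjusted p = 0.00753) and Lifr, the receptor of leukaemia inhibitory factor, fell by 0.55 (adjusted p = 0.0115). Runx1 was at log2 9.59, 10.19, 10.43 and 10.43 in knockout animals 1 to 4, against 8.99 to 9.36 in the controls, so that knockout animal 1 was again nearest to them. The median of this list was 0.05, and Stat3 gave 0.46 (adjusted p = 0.122).

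None of the 10 other metalloprotease inhibitors, 11 genes of plasminogen activation or 17 other matrix proteases passed the test. Nor did any of 18 genes listed as matrix substrates, 13 fibrillin microfibril genes or 5 binding partners of TIMP1. The substrate list includes Cartpt, which encodes a neuropeptide precursor and not a matrix protein. The medians of these lists ran from -0.18 for plasminogen activation to 0.00 for the other matrix proteases. The member of each with the smallest p was the inhibitor Tfpi2 (-0.47; limma, adjusted p = 0.171), plasminogen itself, Plg (-0.52; adjusted p = 0.0576), cathepsin S, Ctss (1.84 ± 0.54; adjusted p = 0.0558), the matrix protein Sparc (-0.46; adjusted p = 0.0659), papilin, Papln (-0.55; adjusted p = 0.0544), and the integrin Itgb1 (0.29; adjusted p = 0.314). Over all genes 9.28% passed, so a count of 0 in lists of this size says little.

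Markers of several other cell types also differed between the groups, and the counts of falls below stand against 5.01% of all genes. The 12 endothelial markers summed to an intensity of 117465 to 147024 in control and 77658 to 107969 in knockout muscle, with no overlap, a median of -0.43 and 3 falls (Gpihbp1, Icam2 and Emcn). The 9 smooth muscle and pericyte markers summed to 64040 to 79256 and 53420 to 59289, also with no overlap, with 3 falls and 1 rise. The 7 Schwann cell markers summed to 30252 to 40828 and 24498 to 29566, with 2 falls. The 15 fibroblast markers overlapped, at 314503 to 407930 and 262408 to 440857, with 1 fall and a median of 0.02. Of 8 adipocyte markers 3 fell (Cfd by 1.30, Cidec by 1.22 and Lep by 0.94 on the log2 scale) and Ucp1 rose by 2.28. Both measured erythroid markers together summed to 2814 to 3916 in control and 1189 to 2586 in knockout muscle, with no overlap, and Alas2 fell by 1.04. Of 7 satellite cell markers 1 fell, Calcr, by 1.17 (limma, adjusted p = 0.00222). The knockout means of Calcr and Lep were dim, so their falls are at least 1.34-fold and at least 1.38-fold. In the endothelial, smooth muscle, Schwann cell and fibroblast lists 1 smooth muscle and 1 fibroblast marker were dim in both groups. The part of these cells in the lower Timp3, Timp4, Adamts10, Adamtsl1 and Adamtsl4 values was not tested.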

How the data were processed

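Total RNA of tibialis anterior from 8 mice (4 control, 4 knockout) was hybridised 3 times per animal. The authors deposited 1 linear intensity per row and array. Per the labels' protocols RNA was extracted with Trizol, and the labels name Cy3 in one field and Cy5 in another, so the dye is unknown. The scanner, any background correction and the method of scaling were not given in the sources used here. The deposited intensities below the 5th percentile of all values (38.8) were set to it, log2 was taken, and hybridisations were averaged per animal. Whether animals shared a litter or extraction is not given. Symbols came from an old probe annotation, updated through a RefSeq table of GRCm38.p6, and the row of highest mean stood for a gene. All 17742 genes were fitted with limma 3.58.1 (lmFit, eBayes) in R 4.3.3, with Benjamini-Hochberg adjustment and a threshold of 0.05, checked on simulated data. A gene at or below 125, the highest 5th percentile of an array, was called dim, and a fold against it is a lower bound. Members and gene lists were chosen with earlier results of these data known. Named genes are every Timp, every member that passed, the 5 of smallest p in each other family, and members whose rows disagree in sign with 1 at an unadjusted p under 0.05. Of each list other than the cell type markers, those that passed (up to 4) or the 1 of smallest p are named too. Others named were chosen after their values were seen. Alternatives changed normalization, floor, filter, rows, blocks, variances and the animals or hybridisations included. Protein sequences were not used here.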

Additional observations from a re-analysis of the deposited data

Results flagged for a closer look

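Within a group of 4 animals, 1 animal stood apart from the other 3 (Dixon's test at 95%) in 11 of the 152 groups formed by 76 members and 2 genotypes, and chance flags about 1 in 20 groups. None of the 9 members that passed the test was among them. Values are log2 intensities. Control animal 3 was high for Adam11 (9.79 against 9.39 to 9.45) and Adam6a (9.90 against 9.28 to 9.37) and low for Adam19 (9.41 against 9.90 to 9.98). Knockout animal 1 was low for Adam23 (7.42 against 8.68 to 8.88) and Adam28 (10.60 against 11.04 to 11.11). It was high for Adamts20 (9.36 against 9.05 to 9.11) and for Adamts16 (6.52 against 5.82 to 5.93, all dim). Knockout animal 2 was low for Adam25 (8.47 against 9.61 to 9.73). Knockout animal 3 was low for the gelatinase Mmp2 (12.76 against 13.33 to 13.40) and for Adamtsl2 (8.15 against 8.44 to 8.45). Knockout animal 4 was high for the sheddase Adam17 (11.84 against 11.70 to 11.72).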

How the results depend on the processing

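Timp1 kept its direction and its call under 25 of 26 alternatives, and Mmp3 and Adamtsl4 under 24. The exceptions were the 2 series of animal numbers taken alone, where Timp1 was 1.37 in series A. The 1647 genes called became 2569 with quantile normalization, 3609 with array weights, 62 in series A, 508 in series B, and 945 to 1693 with each animal left out. The 5 members raised became 8 with quantile normalization, 9 with cyclic loess, 8 with a filter on dim genes, 3 without hybridisation 2, 0 in series A, 1 in series B and 3 to 5 with an animal left out. They were 2 with the floor at the dim level, which was chosen after seeing the data. The 4 members lowered became 2 without hybridisation 1, 0 in series A, 1 in series B, 13 with array weights and 1 to 4 with an animal left out. Deviations of arrays from their animal's mean were correlated between animals. Over 84 pairs with the same hybridisation number the median was 0.0421 (-0.632 to 0.749). Over 168 pairs with other numbers it was -0.0174 (-0.655 to 0.630). The medians thus differed little, while single pairs of both kinds were strongly correlated. With all arrays, the animal as a random block and the hybridisation number as a replicate block, 2978 genes, 7 raised and 6 lowered members were called and Timp1 was 2.14. Without the replicate block 3149 genes and 8 raised members were called. Both fits set the same within-animal correlation for all genes, so p-values can be too small where animals differ more than hybridisations. With an animal left out, Timp1 minus Timp2 ranged from 2.21 to 2.86, minus Timp3 from 2.34 to 3.0 and minus Timp4 from 2.90 to 3.53. These ratios were not run with blocks, weights or other variances, nor in a series alone, and with the filter on dim genes Timp2 gave no value. Sign turned for Adamtsl2 (0.07 in series A), Adamtsl3 (-0.05 in series B and -0.04 to 0.11 with an animal left out) and Adamts20 (0.25 as the mean over its rows). The causes of these shifts were not tested. The low end of the intensity scale limits what can be said of the 11 members dim in both groups.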
